A study of Rattus norvegicus with 12 samples.

Results

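The genes described here are 37 genes that T cells and natural killer cells use, followed in the kidney of the male Fisher F344 rat, an inbred laboratory strain. They were chosen by name as genes of these cells, with earlier results of these data already known. A gene was taken as measured where the array annotation named a probe for it and for no other gene, and the probe with the highest mean intensity over the 12 arrays stood for the gene. By that rule 31 of the 37 genes had a probe, out of 12722 gene symbols with a probe on the array. The genes Cd27, Icos, Ctla4, Il7r and Cxcr6 had no named probe, and the 1 probe for Klrb1a was shared with another gene, so these 6 were not analysed here. Total kidney RNA was hybridised to CodeLink whole genome arrays for the rat, which carry 1 colour, with 4 arrays in each of 3 groups. The young rats were 4 months old and were fed ad libitum, that is without limit. The aged ad libitum rats were 24 months old and were fed in the same way. The restricted rats were 24 months old and had eaten less since early life, 10% less food from 10 weeks of age, 25% less from 15 weeks and 40% less from 4 months on. No allele or drug was part of the design.

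T cells recognise peptides on the surface of other cells through a receptor whose signal is carried by the CD3 chains and by the zeta chain encoded by Cd247. The kinase Lck starts that signal, Zap70 relays it and the adaptor Lat spreads it to enzymes inside the cell. Cytotoxic T cells and natural killer cells kill by releasing granules that hold perforin, which opens the membrane of the target cell, and granzymes, proteases that then enter it. A healthy young kidney holds few lymphocytes, and in old rats of this strain white blood cells, lymphocytes among them, are known to gather between the tubules. In whole-tissue RNA, more cells of a type and more RNA per cell cannot be told apart.

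A gene was above background on an array where the scanner software did not mark its spot as near background. Between 64.2% and 69.9% of probes were above background on the young arrays, 71.5% to 73.7% on the aged ad libitum arrays. The restricted arrays had 72.5% to 74.8%. The labels call the 4 arrays of a group biological replicates, but many of them differed by no more than repeat spots within 1 array did. Over 10799 bright probes the SD of the log2 difference was 0.0923 to 0.139 between such arrays, against 0.217 to 0.546 between arrays of different groups. Arrays that agreed in this way were counted as 1 sample, which gave 5 samples: young arrays 1 and 2, young arrays 3 and 4, all 4 aged ad libitum arrays, restricted arrays 1 and 3, and restricted arrays 2 and 4. The 2 young samples differed from each other by SDs of 0.321 to 0.366. That is about as much as young arrays 3 and 4 differed from the aged arrays of both groups (0.332 to 0.362). Some joins were close. Young arrays 1 and 2 were slightly past the repeat-spot limit (SD 0.116 against 0.11), and aged ad libitum array 4 was within it of array 3 only, at 1.06 and 1.04 times the limit from arrays 1 and 2. The 4 restricted pairs placed in different samples, with SDs of 0.164 to 0.224, were also only 1.04 to 1.19 times the limit. Results are therefore given too with young arrays 1 and 2 as 2 samples, and with every pair in a sample held within the limit, which gives 7 samples and sets aged ad libitum array 4 apart. Tests over 12 arrays therefore measure only the spread between arrays, and each comparison below is also given over the 5 samples, where the aged ad libitum group is 1 sample. Slide series 1 held the aged ad libitum arrays and restricted arrays 3 and 4, and slide series 2 held the young arrays and restricted arrays 1 and 2. Scan batch 1 held only the aged ad libitum arrays. Slide series and scan batch were both inferred from parts of the image names that the scanner software recorded. Scan batch and the aged ad libitum group cannot be told apart. No slide series held both young and aged ad libitum arrays. All 15 kidney epithelium and podocyte markers had a probe above background on at least 1 array, and 14 of them could be tested. Since most of all probes were above background on every array, this is only a weak check of the tissue.

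Most T cell and natural killer cell genes were higher in the aged kidney than in the young kidney. Of the 28 genes above background on at least 4 arrays, 24 rose from young to aged ad libitum at an adjusted p under 0.05 over 12 arrays (limma, Benjamini-Hochberg over 25398 probes), 2 fell (Ptprcap and Cxcr3) and 2 did not pass (Cd247 and Cd28). Over all probes tested, 20.9% rose and 27.1% fell by the same rule. The median log2 difference was 1.49 over the 28 genes and -0.05 over all probes tested. The summed intensity of the measured genes was 5816 to 6713 on the young arrays and 17183 to 18973 on the aged ad libitum arrays. These sums include the 3 genes above background on no array, and that of aged ad libitum array 4 lacks Rac2, whose value was missing there. Over the 5 samples none of the 28 passed (limma, Benjamini-Hochberg), with 23 higher and 0 lower at an unadjusted p under 0.05, and 0.0788% of all probes rose and 0.0354% fell after adjustment. With young arrays 1 and 2 as separate samples 8 of the 28 rose (Cd3g, Cd5, Cd7, Lck, Vav1, Prf1, Nkg7 and Klrd1) and 0 fell, where 1.08% of all probes rose and 0.866% fell. Over the 7 samples, where Rac2 was missing on aged ad libitum array 4 and not tested, 21 of 27 rose and 0 fell, where 9.22% of all probes rose and 13.7% fell, so the calls depend on whether aged ad libitum array 4 is a sample of its own. The genes that passed the filter only through the aged arrays had to differ, so these counts describe the genes measured and are not a test of the whole set. In the sentences below levels are log2 normalised intensities, differences are on the log2 scale with their standard error (SE) over the 5 samples, and the adjusted p is that of limma over 12 arrays unless stated.

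**Figure D1:**
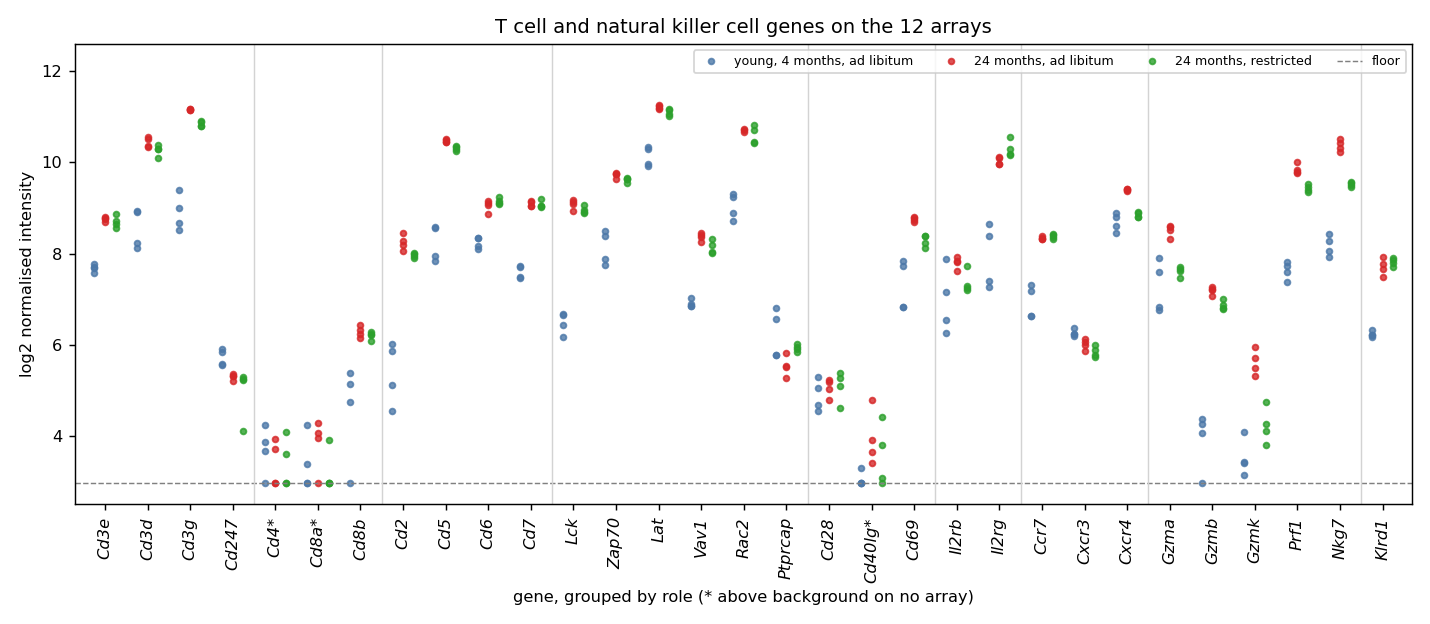
Log2 normalised intensity (vertical axis) of the 31 genes with a probe (horizontal axis, grouped by role), with 1 point per array: blue for young, red for aged ad libitum and green for restricted. For most genes the red and green points lie together and above the blue ones, and the floor of 2.97 is the dashed line.

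The invariant chains of the T cell receptor rose, except the zeta chain. Cd3g measured 9.0, 9.40, 8.67 and 8.53 on young arrays 1 to 4, 11.15, 11.17, 11.15 and 11.18 on aged ad libitum arrays 1 to 4 and 10.80, 10.91, 10.89 and 10.81 on restricted arrays 1 to 4. All aged values were above all young values, and the restricted values lay just under those of the aged ad libitum arrays. Cd3g rose 4.81-fold from young to aged ad libitum (log2 difference 2.27, SE 0.31, adjusted p = 7.83e-07). Cd3d measured 8.93, 8.92, 8.24 and 8.13 on young arrays 1 to 4, 10.34, 10.51, 10.36 and 10.56 on aged ad libitum arrays 1 to 4 and 10.11, 10.30, 10.30 and 10.38 on restricted arrays 1 to 4. Young arrays 1 and 2 stood above young arrays 3 and 4, and none reached an aged array; the difference was 1.89 (SE 0.36, adjusted p = 9.8e-06). Cd3e measured 7.76, 7.58, 7.71 and 7.69 on young arrays 1 to 4, 8.70, 8.77, 8.80 and 8.75 on aged ad libitum arrays 1 to 4 and 8.56, 8.71, 8.65 and 8.87 on restricted arrays 1 to 4. Its groups did not overlap between young and aged, and its rise of 1.07 was the smallest of the 3 chains (SE 0.21, adjusted p = 1.25e-06). The 3 genes lie beside each other on chromosome 8 of the rat. Cd247, which encodes the zeta chain, measured 5.90, 5.59, 5.84 and 5.57 on young arrays 1 to 4, 5.35, 5.31, 5.31 and 5.22 on aged ad libitum arrays 1 to 4 and 5.23, 5.24, 4.12 and 5.30 on restricted arrays 1 to 4. The young arrays were highest, and restricted array 3 stood apart below the other 11. The difference of Cd247 between aged ad libitum and young was -0.42 (SE 0.31, adjusted p = 0.138), and without restricted array 3 the adjusted p was 0.00321.

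Of the 3 co-receptor genes, which help the receptor bind its ligand, only Cd8b could be tested. Cd8b measured 2.97, 5.37, 5.13 and 4.74 on young arrays 1 to 4, 6.43, 6.23, 6.15 and 6.33 on aged ad libitum arrays 1 to 4 and 6.29, 6.22, 6.09 and 6.23 on restricted arrays 1 to 4. It was above background on 1 young array and on all aged arrays. The measured log2 difference from young to aged ad libitum was 1.73 (SE 0.36, adjusted p = 0.00502), but the other 3 young arrays give only an upper limit on the young level. Young array 1 was at the floor. Without it the Cd8b difference was 1.2. Cd4 and Cd8a, the co-receptors of helper and cytotoxic T cells, were above background on none of the 12 arrays, so their probes give no level in any group.

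All 4 genes of the surface receptor and adhesion group rose with age. Cd2, an adhesion receptor that binds Cd48 in rodents, measured 5.12, 4.54, 5.87 and 6.01 on young arrays 1 to 4, 8.45, 8.19, 8.27 and 8.06 on aged ad libitum arrays 1 to 4 and 8.0, 7.91, 8.01 and 7.95 on restricted arrays 1 to 4. The young arrays, of which 2 were above background, were spread over a wide range and all of them lay well below the aged ones. Cd2 rose 7.25-fold from young to aged ad libitum (log2 difference 2.86, SE 0.48, adjusted p = 9.26e-06). Cd5, which dampens T cell receptor signals, measured 8.57, 8.57, 7.84 and 7.96 on young arrays 1 to 4, 10.44, 10.45, 10.50 and 10.52 on aged ad libitum arrays 1 to 4 and 10.29, 10.26, 10.37 and 10.33 on restricted arrays 1 to 4. The aged ad libitum arrays were nearly identical to each other. The rise was 2.25 (SE 0.33, adjusted p = 9.24e-07), and a second Cd5 probe rose by 2.33. Cd7, a receptor of T cells and natural killer cells, rose by 1.5 (SE 0.22), from 7.46 to 7.73 on the young arrays to 9.04 to 9.16 on the aged ad libitum arrays. Cd6, a receptor for the adhesion molecule Alcam, rose by 0.81 (SE 0.21), from 8.10 to 8.34 on the young arrays to 8.88 to 9.14.

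Of the 6 signalling genes 5 rose and 1 fell. Lck measured 6.43, 6.16, 6.68 and 6.65 on young arrays 1 to 4, 9.17, 9.12, 9.08 and 8.95 on aged ad libitum arrays 1 to 4 and 8.97, 8.90, 8.90 and 9.06 on restricted arrays 1 to 4. The young values lay together more than 2 log2 units below every aged value. Lck rose 6.05-fold (log2 difference 2.6, SE 0.24, adjusted p = 2.4e-08). Zap70 measured 8.50, 8.39, 7.88 and 7.74 on young arrays 1 to 4, 9.76, 9.77, 9.65 and 9.75 on aged ad libitum arrays 1 to 4 and 9.55, 9.67, 9.63 and 9.65 on restricted arrays 1 to 4. Its young arrays again lay in 2 levels, 1 for each young sample, below all aged arrays. The difference was 1.60 (SE 0.32, adjusted p = 9.94e-06). Rac2, a small GTPase of blood cells, rose by 1.67 (SE 0.30), with the value of aged ad libitum array 4 missing because of a spot flag and the fit made without it. Vav1, which activates such GTPases, rose by 1.47 (SE 0.22), and Lat rose by 1.09 (SE 0.24). Ptprcap, which encodes a protein bound to the phosphatase CD45, went the other way. It measured 6.80, 6.57, 5.78 and 5.77 on young arrays 1 to 4, 5.55, 5.27, 5.52 and 5.82 on aged ad libitum arrays 1 to 4 and 5.91, 5.84, 5.96 and 6.01 on restricted arrays 1 to 4. Only young arrays 1 and 2 stood above the aged arrays, while young arrays 3 and 4 lay among them. Ptprcap fell by 0.70 (SE 0.41, adjusted p = 0.0223), and the call was lost without young array 1 (adjusted p = 0.0555), young array 2 (0.0614) or aged ad libitum array 2 (0.063).

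Genes of costimulation and activation differed among themselves. Cd69, an early activation marker that holds lymphocytes in tissue, measured 7.85, 7.73, 6.82 and 6.83 on young arrays 1 to 4, 8.70, 8.80, 8.75 and 8.78 on aged ad libitum arrays 1 to 4 and 8.39, 8.22, 8.39 and 8.13 on restricted arrays 1 to 4. Every aged ad libitum array was above every other array, and the young arrays were split by sample. Cd69 rose by 1.45 from young to aged ad libitum (SE 0.44, adjusted p = 0.000296). Cd28, the main costimulatory receptor, was above background on 1 young array and on 4 aged ad libitum arrays, with a difference of 0.16 (SE 0.22, adjusted p = 0.526). Cd40lg, the ligand by which helper T cells activate B cells, was above background on no array.

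Both cytokine receptor genes rose over the 12 arrays. Il2rg, the gamma chain shared by the receptors for several interleukins, measured 7.40, 7.27, 8.38 and 8.64 on young arrays 1 to 4, 10.13, 10.11, 9.98 and 9.96 on aged ad libitum arrays 1 to 4 and 10.16, 10.29, 10.18 and 10.57 on restricted arrays 1 to 4. Both young samples lay below the aged arrays, young arrays 1 and 2 furthest. Il2rg rose 4.35-fold (log2 difference 2.12, SE 0.52, adjusted p = 9.58e-05). Il2rb, the beta chain of the receptors for interleukin 2 and interleukin 15, measured 6.54, 6.25, 7.17 and 7.88 on young arrays 1 to 4, 7.81, 7.61, 7.92 and 7.83 on aged ad libitum arrays 1 to 4 and 7.20, 7.24, 7.29 and 7.73 on restricted arrays 1 to 4. Young array 4 overlapped the aged arrays and young arrays 1 and 2 were lowest. The Il2rb difference was 0.83 (SE 0.50, adjusted p = 0.0334). That call was lost without young array 1 (adjusted p = 0.0904), young array 2 (0.0864) or aged ad libitum array 1 (0.0654), 3 (0.0738) or 4 (0.0656), and without young arrays 1 and 2 together the difference was 0.27 (adjusted p = 0.307).

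The 3 chemokine receptor genes went in both directions. Ccr7, which guides naive T cells and dendritic cells to lymphoid tissue, measured 7.31, 7.17, 6.64 and 6.64 on young arrays 1 to 4, 8.32, 8.33, 8.34 and 8.40 on aged ad libitum arrays 1 to 4 and 8.43, 8.41, 8.32 and 8.37 on restricted arrays 1 to 4. All aged arrays lay together above the young ones. Its rise from young to aged ad libitum was 1.40 (SE 0.31, adjusted p = 1.63e-05). Cxcr4, the receptor for Cxcl12, measured 8.89, 8.80, 8.46 and 8.61 on young arrays 1 to 4, 9.39, 9.36, 9.43 and 9.41 on aged ad libitum arrays 1 to 4 and 8.80, 8.90, 8.91 and 8.80 on restricted arrays 1 to 4. The aged ad libitum arrays were above all others, and the restricted arrays lay close to the highest young ones. Cxcr4 rose by 0.71 with age (SE 0.23, adjusted p = 9.39e-05). Cxcr3, the receptor for the interferon-induced chemokines Cxcl9, Cxcl10 and Cxcl11, measured 6.36, 6.19, 6.24 and 6.24 on young arrays 1 to 4, 6.12, 5.87, 6.06 and 5.99 on aged ad libitum arrays 1 to 4 and 5.78, 5.89, 5.73 and 6.0 on restricted arrays 1 to 4. Its young values were the highest by a small margin. Cxcr3 fell by 0.25 (SE 0.20, adjusted p = 0.0268), and that call was lost without young array 1 (adjusted p = 0.0729) or aged ad libitum array 2 (0.0808) or 4 (0.0569), and under array median scaling (0.0645).

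All 5 cytotoxic granule genes rose with age by the brightest probe of each. For Gzmb a second probe, above background on all 12 arrays, fell by 0.43 instead (limma, adjusted p = 0.0131). The Gzmb values in this paragraph are those of the brightest probe. Gzmb, the granzyme that starts cell death in the target, measured 2.97, 4.38, 4.26 and 4.07 on young arrays 1 to 4, 7.27, 7.21, 7.22 and 7.07 on aged ad libitum arrays 1 to 4 and 7.01, 6.79, 6.88 and 6.81 on restricted arrays 1 to 4. Its probe was above background on no young array and on all aged arrays, so the fold is a lower bound. Set against the lowest signal above background, Gzmb was at least 4.76-fold higher in aged ad libitum than in young (adjusted p = 2.06e-06 for the measured log2 difference of 3.27, SE 0.28). Prf1, which encodes perforin, measured 7.82, 7.73, 7.59 and 7.38 on young arrays 1 to 4, 10.01, 9.83, 9.77 and 9.79 on aged ad libitum arrays 1 to 4 and 9.35, 9.53, 9.41 and 9.46 on restricted arrays 1 to 4. The 3 groups did not overlap, with young lowest and aged ad libitum highest. Prf1 rose 4.66-fold from young to aged ad libitum (log2 difference 2.22, SE 0.23, adjusted p = 4.03e-08). Nkg7, a protein of the granule membrane, measured 8.43, 8.27, 8.06 and 7.93 on young arrays 1 to 4, 10.42, 10.32, 10.24 and 10.51 on aged ad libitum arrays 1 to 4 and 9.50, 9.57, 9.46 and 9.55 on restricted arrays 1 to 4. It showed the same order of groups without overlap. Nkg7 rose 4.60-fold (log2 difference 2.20, SE 0.24, adjusted p = 6.55e-08). Gzmk, a granzyme found in memory T cells and natural killer cells, measured 4.09, 3.41, 3.15 and 3.43 on young arrays 1 to 4, 5.94, 5.50, 5.71 and 5.31 on aged ad libitum arrays 1 to 4 and 4.12, 3.81, 4.74 and 4.27 on restricted arrays 1 to 4. It was above background on no young array, on all aged ad libitum arrays and on 1 restricted array. Gzmk was at least 1.59-fold higher in aged ad libitum than in young (adjusted p = 3.68e-05). Gzma, a granzyme of killer cells, measured 6.76, 6.83, 7.59 and 7.91 on young arrays 1 to 4, 8.60, 8.53, 8.58 and 8.33 on aged ad libitum arrays 1 to 4 and 7.70, 7.47, 7.62 and 7.67 on restricted arrays 1 to 4. Young array 3 lay within the restricted range and young array 4 above it, and the aged ad libitum arrays were above all others. The difference between aged ad libitum and young was 1.24 (SE 0.43, adjusted p = 0.00103). Klrd1, which encodes CD94, a receptor chain of natural killer cells, rose by 1.5 (SE 0.20, adjusted p = 4.87e-07), from 6.17 to 6.32 on the young arrays to 7.48 to 7.93.

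The promoters of the 5 granule genes are printed below, and that of Cd3g for contrast. They were picked because, by the brightest probe of each gene, all 5 rose with age and 4 of them fell with restriction. Each sequence is the 250 bases before the gene start, from RefSeq on build GRCr8, written 5′ to 3′ on the strand of the gene. Capitals mark TGTGGT, the core motif bound by factors of the RUNX family, or its reverse complement ACCACA.
Gzma, chr2:46485697-46485946, minus strand: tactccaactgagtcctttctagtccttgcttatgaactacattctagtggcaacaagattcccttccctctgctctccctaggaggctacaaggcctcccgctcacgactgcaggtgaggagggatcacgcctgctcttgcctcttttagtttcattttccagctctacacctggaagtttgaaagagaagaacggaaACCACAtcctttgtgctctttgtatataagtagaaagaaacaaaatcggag
Gzmb, chr15:34462470-34462719, minus strand: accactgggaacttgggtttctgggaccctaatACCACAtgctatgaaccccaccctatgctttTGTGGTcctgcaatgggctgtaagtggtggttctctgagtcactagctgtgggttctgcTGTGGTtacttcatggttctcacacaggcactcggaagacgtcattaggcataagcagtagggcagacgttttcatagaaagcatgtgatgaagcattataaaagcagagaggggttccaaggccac
Gzmk, chr2:46582016-46582265, minus strand: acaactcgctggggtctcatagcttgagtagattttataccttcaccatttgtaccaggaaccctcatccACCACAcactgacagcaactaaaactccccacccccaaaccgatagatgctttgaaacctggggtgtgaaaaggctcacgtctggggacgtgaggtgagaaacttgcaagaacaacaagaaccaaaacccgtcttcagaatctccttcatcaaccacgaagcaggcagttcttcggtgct
Prf1, chr20:29788790-29789039, plus strand: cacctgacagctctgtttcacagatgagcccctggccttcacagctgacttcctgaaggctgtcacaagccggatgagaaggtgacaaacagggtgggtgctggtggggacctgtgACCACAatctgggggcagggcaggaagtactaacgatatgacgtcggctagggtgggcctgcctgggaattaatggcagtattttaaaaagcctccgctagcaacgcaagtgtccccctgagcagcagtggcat
Nkg7, chr1:102981247-102981496, plus strand: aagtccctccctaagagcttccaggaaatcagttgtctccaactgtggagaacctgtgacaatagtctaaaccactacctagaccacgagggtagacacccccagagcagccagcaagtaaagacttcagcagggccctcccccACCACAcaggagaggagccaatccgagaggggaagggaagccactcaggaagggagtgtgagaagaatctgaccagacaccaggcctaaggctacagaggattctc
Cd3g, chr8:54183919-54184168, minus strand: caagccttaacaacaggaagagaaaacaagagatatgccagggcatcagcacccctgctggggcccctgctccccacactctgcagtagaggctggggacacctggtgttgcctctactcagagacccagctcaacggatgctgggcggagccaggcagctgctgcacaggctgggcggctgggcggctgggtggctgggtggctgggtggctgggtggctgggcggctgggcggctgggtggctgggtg
At least 1 RUNX core lay in all 5 granule promoters, with 3 in that of Gzmb, and in none of the 4 promoters of the receptor complex genes. Over all 26 of the 37 genes with a promoter in the table, 10 held the motif, against 14.5% of the 33469 promoters of the same length. Beside the granule genes these were Cd2, Cd28, Lat and Lck, which did not pass with restriction, and Il7r, which had no named probe. Gzmb did not pass with restriction either. The promoter of Cxcr4, which was lower with restriction, held no RUNX core. The other 4 motifs were searched on both strands. AGGAAG of the ETS family was in 17 of the 26 promoters (29.5% of all promoters) and GGAAAA of the NFAT family in 4 (21.6%). GGTGTG of the T-box family was in 5 (15.4%) and TATAAA, the letters of a TATA box, in 5 (12.9%). The TATAAA matches began at base -30 in Gzmb, -46 and -44 in Cxcr4, -98 in Ctla4, -216 in Icos and -217 in Gzmk. The count took no account of position or strand, so a match need not be a TATA box. The motifs can overlap, as in the Klrb1a promoter, where the NFAT match shares 1 base with an ETS match. The motifs were chosen with the expression values known, and the RUNX core was set in capitals after its counts were seen. These matches are a description of letters and no binding was measured.

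Between the restricted and the aged ad libitum kidney most of the T cell genes did not pass the test, while 4 of the 5 granule genes were lower. Of the 28 genes tested, 5 were lower on the restricted than on the aged ad libitum arrays at an adjusted p under 0.05 over 12 arrays, 0 were higher and 23 did not pass. Over all probes 5.98% were lower and 7.39% were higher by the same rule, so the count of lower genes was 5 of 28 against that background. The median log2 difference was -0.16 over the 28 genes and 0.01 over all probes tested. The genes that fell were Gzma, Gzmk, Prf1 and Nkg7, which are 4 of the 5 granule genes, and Cxcr4. Over the 5 samples none of the 28 passed (limma, Benjamini-Hochberg), 2 were lower and 0 higher at an unadjusted p under 0.05, and 0% of all probes were called in either direction. With young arrays 1 and 2 as separate samples the count was 0 too, with 3 lower and 0 higher at an unadjusted p under 0.05 and 0% of all probes called. Over the 7 samples it was again 0 of 27, with 5 lower and 0 higher at an unadjusted p under 0.05, while 0.271% of all probes were lower and 0.191% higher.

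**Figure D2:**
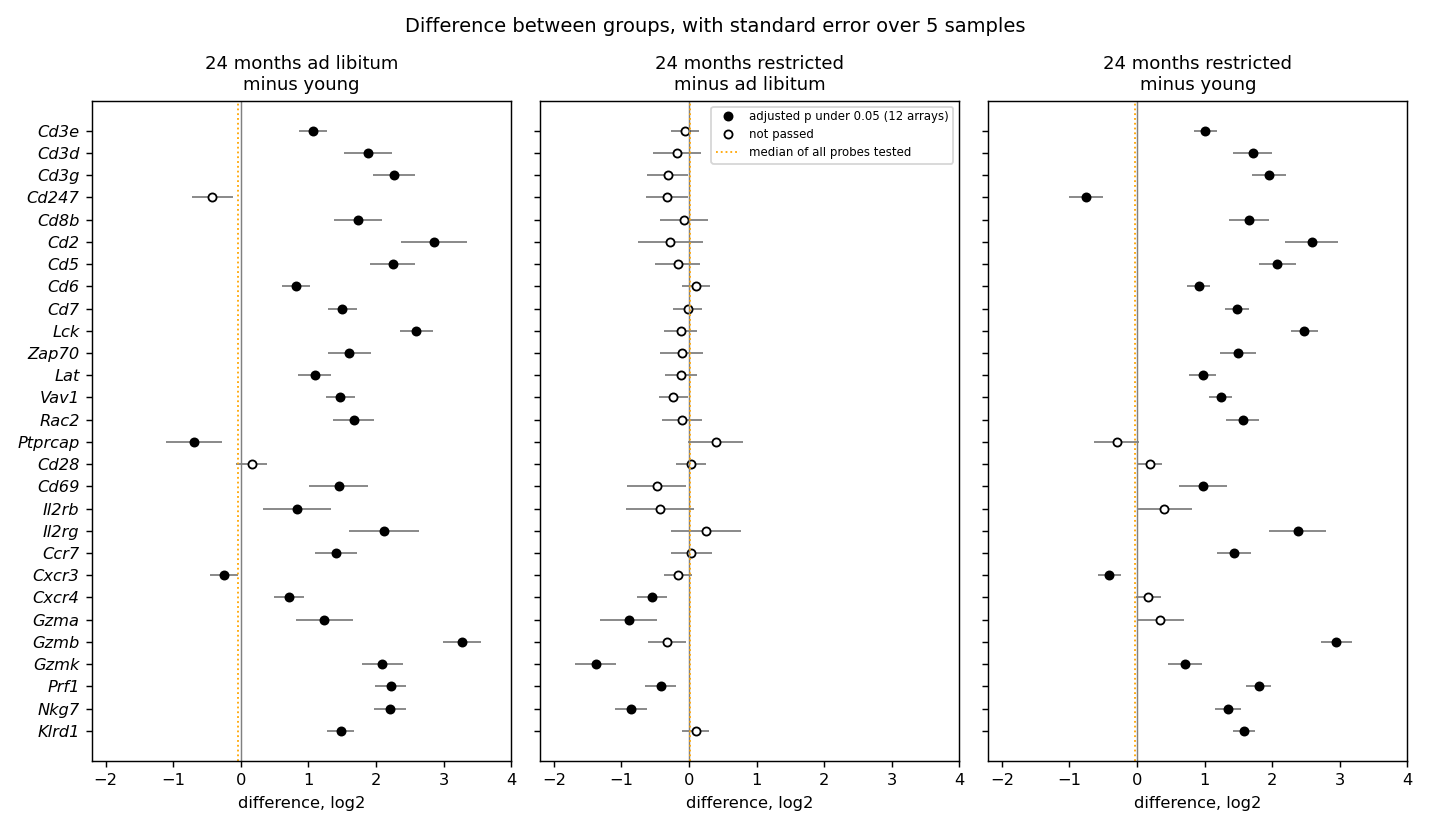
Log2 difference between groups (horizontal axis) for the 28 genes tested (vertical axis), in 3 panels, 1 for each comparison. Points are means over 12 arrays, filled where the adjusted p was under 0.05 over 12 arrays, bars are 1 SE over the 5 samples on either side, and the dotted line is the median of all probes tested. The left and right panels are shifted to the right, and in the middle panel the filled points are the 5 genes that were lower with restriction.

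By the values given above, the Nkg7 level on every restricted array was below that on every aged ad libitum array and above that on every young array. Nkg7 fell by 0.85 with restriction, which is 1.81-fold (SE 0.24, adjusted p = 0.000434, and 0.852 over the 5 samples). Gzmk fell by 1.38 as measured (SE 0.31, adjusted p = 0.00281, and 0.756 over the 5 samples), but it was above background on only 1 restricted array, so the size of the fall is not well measured. Cxcr4 fell by 0.55 (SE 0.23, adjusted p = 0.00247), to levels close to those of the highest young arrays. Gzma fell by 0.89 (SE 0.43, adjusted p = 0.0216), a call that was lost without aged ad libitum array 1 (adjusted p = 0.0592), 2 (0.0567) or 3 (0.061) or restricted array 2 (0.0639) or 3 (0.0518). Prf1 fell by 0.41 (SE 0.23, adjusted p = 0.0193), a call that was lost without aged ad libitum array 1 (adjusted p = 0.0614) or restricted array 1 (0.0533) or 3 (0.051). Gzmb, the fifth granule gene, was 0.32 lower and did not pass (SE 0.28, adjusted p = 0.447), and it passed without young array 1, which was at the floor (adjusted p = 0.0315). Klrd1 differed by 0.10 and did not pass (SE 0.20, adjusted p = 0.536).

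The receptor complex, adhesion and signalling genes did not pass between restricted and aged ad libitum arrays, and a missed threshold does not show equal levels. The largest differences among them were -0.33 for Cd247, -0.32 for Cd3g (SE 0.31, adjusted p = 0.208) and 0.40 for Ptprcap, while Lck differed by -0.12, Zap70 by -0.11, Cd2 by -0.27 and Cd3e by -0.06. Cd3g passed without young array 2 (adjusted p = 0.0466), and Vav1, 0.23 lower in the full set, passed without restricted array 4 (adjusted p = 0.0492). Cd69 was 0.47 lower (SE 0.44, adjusted p = 0.183). Il2rg was 0.26 higher and Ccr7 0.04 higher, and neither passed.

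Within slide series 1, which held the 4 aged ad libitum arrays and restricted arrays 3 and 4, 8 of 28 genes were lower with restriction and 0 higher, where 9.45% of all probes were lower and 9.04% higher. The aged ad libitum side is 1 sample here as well, so these p-values measure the spread between arrays only. The genes were the 5 above, with Nkg7 lower by 0.87, Gzmk by 1.11, Gzma by 0.87, Cxcr4 by 0.54 and Prf1 by 0.42, and also Gzmb (log2 difference -0.35, adjusted p = 0.028), Cd69 (-0.50, adjusted p = 0.013) and Cd3g (-0.32, adjusted p = 0.0195). The scan batches still separate these arrays by group.

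**Figure D3:**
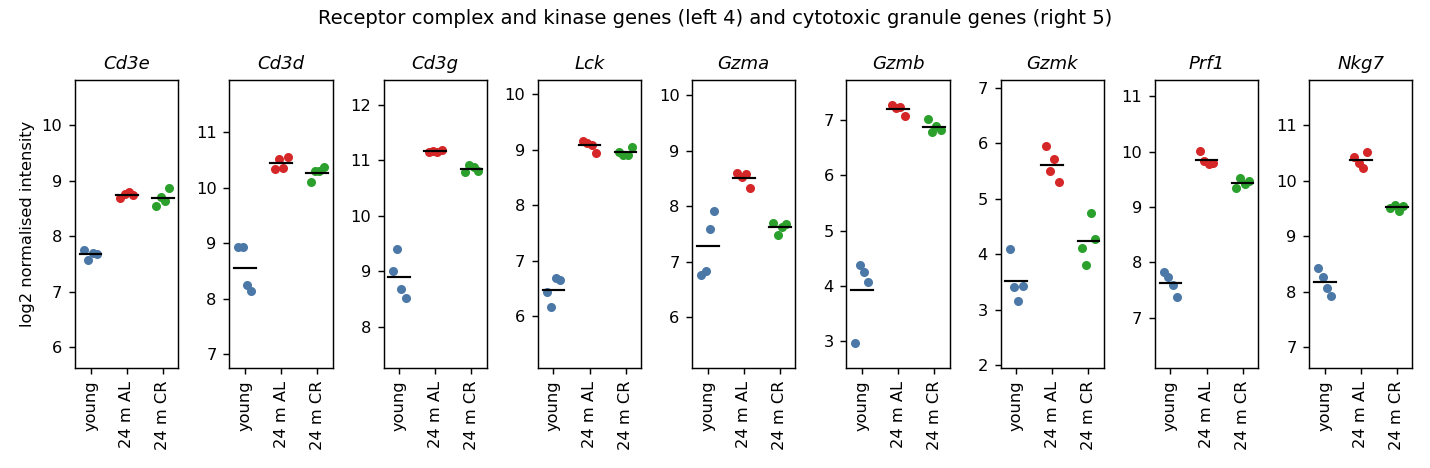
Log2 normalised intensity (vertical axes, each spanning 5.2 log2 units) on each array of the 3 groups, for 4 receptor complex and kinase genes on the left and the 5 granule genes on the right. Points are arrays and the black line is the mean over the arrays of a group. The restricted points of Gzma, Gzmk, Prf1 and Nkg7 sit below all aged ad libitum points, those of Gzmb and Cd3g too but without passing the test, while those of Cd3e, Cd3d and Lck overlap them.

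Set against the young kidney, the restricted kidney still held most of these transcripts at higher levels. Of the 28 genes, 21 were higher on the restricted arrays than on the young arrays at an adjusted p under 0.05 over 12 arrays, 2 were lower (Cd247 and Cxcr3) and 5 did not pass. Over all probes 19.7% were higher and 24.6% lower. The median log2 difference was 1.39 over the 28 genes and -0.02 over all probes tested. This comparison shares the young arrays with the first and the restricted arrays with the second, so the 3 are not independent. Over the 5 samples 4 genes were higher and 0 lower, namely Gzmb (adjusted p = 0.032), Lck (0.0328), Prf1 (0.0431) and Klrd1 (0.0431), with 0.709% of all probes higher and 0.209% lower. A second Gzmb probe went the other way and was 0.91 lower (adjusted p = 0.000157 over 12 arrays). With young arrays 1 and 2 apart, 18 were higher and 0 lower, where 4.5% of all probes were higher and 5.34% lower. Over the 7 samples 17 of 27 were higher and 2 lower, where 8.59% of all probes were higher and 12.3% lower. Within slide series 2, which held the young arrays and restricted arrays 1 and 2, 17 of the 24 genes that could be tested were higher and 1 was lower, where 6.6% of all probes were higher and 10.1% lower.

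Among the genes higher on the restricted than on the young arrays, Cd2 differed by 2.58 (SE 0.39), Lck by 2.48 (SE 0.20) and Il2rg by 2.38 (SE 0.42). Gzmb was at least 3.8-fold higher by its brightest probe. Prf1 was 3.49-fold and Nkg7 2.55-fold higher. Gzmk passed as higher (adjusted p = 0.0277), but no size can be given since 1 restricted array and no young array were above background, and it lost that call without young array 2 (adjusted p = 0.0613) or 3 (0.0664) or restricted array 3 (0.078) or 4 (0.0572), and under array median scaling (0.159). The genes that did not pass were Ptprcap (-0.30), Cd28 (0.19), Il2rb (0.40), Cxcr4 (0.17, and -0.01 under array median scaling) and Gzma (0.34). Without young array 4, the highest young array for both, Il2rb (adjusted p = 0.0144) and Gzma (adjusted p = 0.0236) passed. Cd247 was 0.75 lower (SE 0.25, adjusted p = 0.0185) and 0.47 lower without restricted array 3, and Cxcr3 was 0.41 lower (SE 0.17, adjusted p = 0.00201).

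Where a gene had several probes they mostly went the same way, with exceptions. The Gzmb values above come from the brightest of 3 probes. A second Gzmb probe, above background on all 12 arrays, fell by 0.43 from young to aged ad libitum (adjusted p = 0.0131) and was 0.47 lower with restriction (adjusted p = 0.026) and 0.91 lower on restricted than on young arrays (adjusted p = 0.000157). The third was above background on no array. The higher Gzmb values of both aged groups therefore rest on 1 probe. A second Cd69 probe, above background on no young array, was at least 1.82-fold higher in aged ad libitum than in young and 1.29 lower with restriction (adjusted p = 0.00498), where the first probe did not pass. A second Il2rb probe rose by 1.2 with age and was 0.80 higher on restricted than on young arrays (adjusted p = 0.00129). Second probes of Cd5, Lat and Klrd1 went in the same direction as the first with the same calls, and a second Ccr7 probe was above background on no array.

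Other genes of T cell receptor signalling rose less uniformly. Of 35 listed, 27 were tested, and 17 rose and 4 fell from young to aged ad libitum, with a median of 0.57. By the same rule 20.9% of all probes rose and 27.1% fell. Ptprc, which encodes CD45, rose by 2.19 and Sh2d1a, an adaptor of the SLAM receptors, by 1.85. Fos and Jun, which together form the AP-1 factor induced in many cell types, fell by 1.39 and 0.46. With restriction 1 gene of the list was higher (Fos, by 0.83) and 3 were lower, where 7.39% of all probes were higher and 5.98% lower. The 3 were Ppp3ca (-0.74), Txk (-0.76) and Ptpn22 (-0.46), chosen after their values were seen.

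Of 53 T cell and natural killer cell genes outside the 37, 27 were tested, and 17 rose and 1 fell with age, with a median of 0.84. Among all probes tested 20.9% rose and 27.1% fell. Tcf7, a transcription factor of naive and memory T cells, rose by 2.96 and Klrg1, a receptor of experienced T cells and natural killer cells, by 2.61, each above background on 2 young arrays. Ikzf1, a transcription factor of lymphocytes, was the 1 that fell, by 1.06. With restriction 4 were lower and 2 higher, where 5.98% of all probes were lower and 7.39% higher. Klrg1 was 1.39 lower (adjusted p = 0.000865). The others, named after their values were seen, were Ncr1, the natural killer receptor NKp46 (at least 3.24-fold lower, with no restricted array above background, adjusted p = 0.00553), Txk (-0.76), Satb1 (-0.48) and, on the higher side, Tnfrsf4 (0.76) and Tnfrsf9 (0.50), which encode the costimulatory receptors OX40 and 4-1BB. Further granule genes did not pass with restriction although they rose with age: Gzmc rose by 2.61 and differed by 0.33 with restriction, Gzmm rose by 2.06 and differed by -0.11, and Ctsw rose by 1.12 and differed by 0.23. These were named after their values were seen.

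Of 19 ligands of the receptors described, 15 were tested, and 9 rose and 1 fell with age. The shares of all probes were 20.9% higher and 27.1% lower. Ccl21, the ligand of Ccr7, rose by 3.13 and Ccl5, a chemokine made by T cells and natural killer cells, by 2.81. Il15, the cytokine that sustains natural killer cells and signals through Il2rb and Il2rg, fell by 0.29. With restriction Ccl5 was 0.94 lower (adjusted p = 0.000218) and Ccl21 did not pass (-0.22). Among the other ligands, named after their values were seen, Cxcl11 was 0.71 lower and Cxcl9 0.92 higher with restriction, and both bind Cxcr3. Cxcl12, the ligand of Cxcr4 and also named afterwards, differed by -0.12 with age and by -0.01 with restriction and passed in neither.

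Genes of other white blood cells moved in the same direction with age over the 12 arrays, where 20.9% of all probes rose and 27.1% fell, and their part in the results above was not tested. The lists share some genes and are not separate. The dendritic cell list holds Ccr7, described above among the chemokine receptors. Ptprc is in the signalling and the leukocyte list, and Txk in both lists of further T cell genes. Over the 5 samples 0 genes of these or the preceding lists passed from young to aged ad libitum or with restriction (limma), although for example 13 of the 16 leukocyte genes were higher with age at an unadjusted p under 0.05. Of the general leukocyte genes 15 of 16 tested rose (median 1.45), led by Cd37 and Ptprc at 2.21 and 2.19, and their summed intensity was 10180 to 10695 on the young, 25924 to 27210 on the aged ad libitum and 25703 to 28671 on the restricted arrays. Of the macrophage and monocyte markers 11 of 14 rose, among them Lyz2 by 3.32 and Mrc1, which no young array measured above background, at least 3.75-fold. Of the B and plasma cell markers 6 of 8 rose, led by Jchain (2.87) and Cd79b (2.64), and of the dendritic cell markers 5 of 6, led by Flt3, above background on 1 young array, and Clec10a at 2.37 each. The neutrophil markers tested, S100a8 and S100a9, rose by 2.47 (above background on 1 young array) and 2.16, while the other 4 neutrophil markers with a probe were above background on no array. Of the mast cell markers 2 of 5 rose (Mcpt1 at least 4.56-fold and Cma1 at least 1.55-fold, neither above background on a young array), and of the thymocyte markers 1 of 3 (Cd1d1, by 0.81). Of the kidney epithelium and podocyte markers 2 of 14 rose, among them Cubn by 1.72, and 2 fell (Slc22a6 by 0.61 and Atp6v1b1 by 0.47), with a median of -0.02.

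With restriction the leukocyte list had 1 of 16 lower and a median of 0.10. The median was -0.85 for the 5 granule genes, which were singled out with their values known, 4 of them having passed as lower. Gzmc, Gzmm and Ctsw, further granule genes described above, did not pass with restriction and are not in that median. The difference between the lists was not tested. For the leukocyte list and the counts that follow, 5.98% of all probes were lower and 7.39% higher over the 12 arrays. The 2 neutrophil markers tested were lower, S100a8 by 1.28 and S100a9 by 1.43, with summed list intensities of 972 to 1075 on the aged ad libitum and 392 to 432 on the restricted arrays. Of the macrophage markers 3 were lower, among them Mrc1 by 0.86, and 2 higher. Of the B and plasma cell markers 1 of 8 was lower, Jchain by 0.99, and of the dendritic cell markers 0 of 6 passed in limma in either direction, with 1 lower and 0 higher at an unadjusted p under 0.05. Of the mast cell markers 0 of 5 passed, and of the thymocyte markers 1 of 3 was lower, Cd1d1 by 0.52. Of the kidney markers 2 of 14 were higher and 0 lower.

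**Figure D4:**
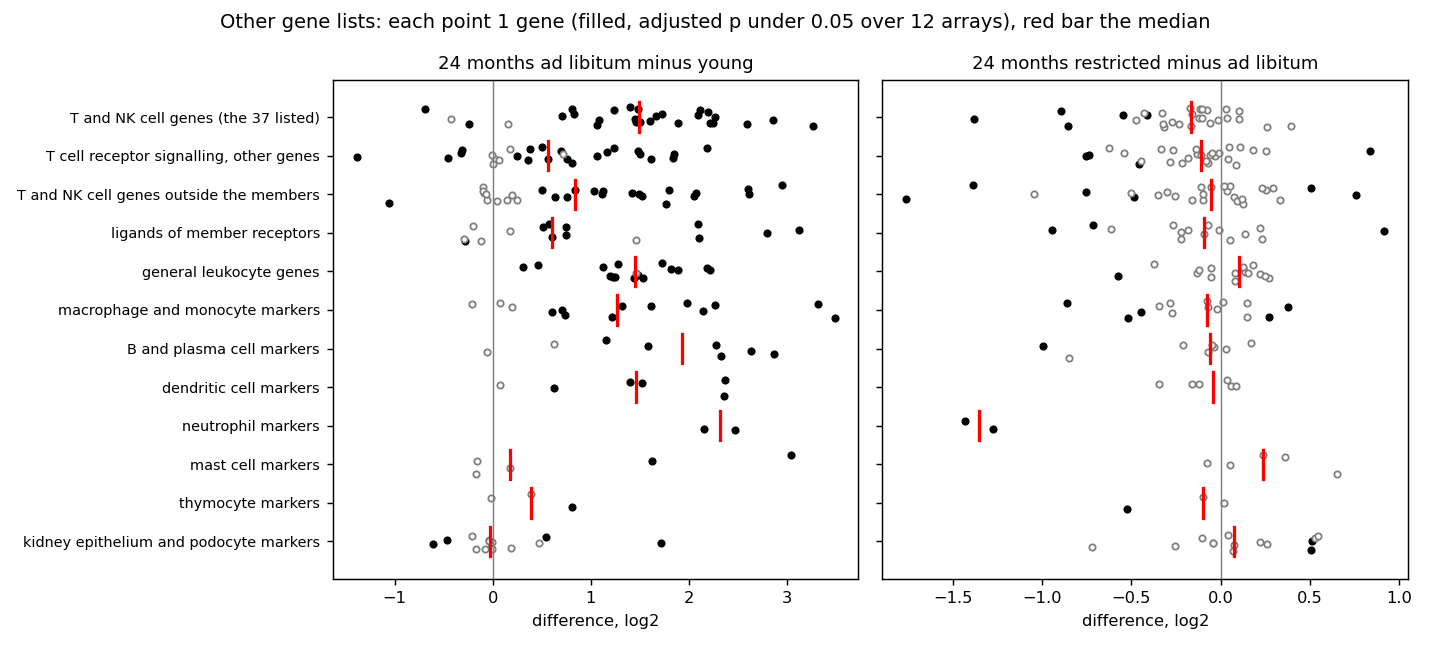
Log2 difference (horizontal axes) of each gene tested in 12 lists (vertical axis), from young to aged ad libitum on the left and from aged ad libitum to restricted on the right. Filled points had an adjusted p under 0.05 over 12 arrays, and red bars are list medians. On the left the medians of the white blood cell lists lie above 0 and that of the kidney list at -0.02, and on the right most medians lie near 0.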

How the data were processed

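Kidney RNA from 3 groups of 4 was measured on 12 CodeLink arrays. The deposited reports hold, per the file headers, a background-subtracted intensity for each spot, written by CodeLink Expression Analysis 4.1.0.29054, and a second, scaled intensity for which the software divided each array by its median after trimming 20% of spots. The authors' deposited value table holds a ratio of that second intensity to a constant per probe. That constant did not vary between arrays by more than a relative 0.01 for 99.8% of the 32022 probes compared. How the authors set it is unknown, and the table served only as an alternative.

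The background-subtracted intensities of 33849 probes were quantile-normalised, raised to a floor of 7.83 (the median of 256 negative control spots) and taken to log2. Spots flagged as contaminated, irregular or masked were set missing. Probes above background on at least 4 arrays, with at least 2 values per group, were tested (25398 probes, 75.0%). The 3 comparisons were made in 1 fit over 12 arrays with limma 3.58.1 in R 4.3.3, two-sided, with Benjamini-Hochberg adjustment over all probes at 0.05. The script was tested on simulated data. Recovery of log2 changes of 1 was under the bound first set, which was then lowered. The number of arrays limits the precision.

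Probes were named from the platform annotation, from accessions or from the reports' descriptions: 17082 had 1 gene, 182 several and 16585 none. All 37 genes were named, and of each other list the 2 with the largest rise and fall with age among those past the threshold, except 1 gene that is not reported here. The 37 genes and the lists were chosen with earlier results of these data known.

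Arrays were joined into samples where the SD of their log2 difference over probes above 200 on all arrays was within that of repeat control spots, or within 1.1 times it and at least 2 times closer than any other array of the group. The allowance was added after the values of the array pairs and the calls they gave had been seen. Without it young arrays 1 and 2 are apart. An array joined a sample through any 1 of its arrays, and the stricter rule that every pair be within the limit was added as an alternative afterwards. Replicate numbers did not pair the arrays: the correlations of deviations between equal numbers ran from -0.18 to 0.15. Alternatives were array median scaling, a higher floor, other filters, the deposited table, the mean of a gene's probes, leaving out arrays or samples, and blocks for replicate number and slide series.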

Additional observations from a re-analysis of the deposited data

Results flagged for a closer look

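In 83 sets of 4 arrays, 1 gene in 1 group each, the highest or lowest array was compared with the rest by Dixon's ratio, which exceeds its 95% critical value in about 1 in 20 sets by chance. It did so in 4 sets. Cd247 measured 4.12 on restricted array 3, against 5.23 to 5.30 on the other restricted arrays. Cd7 measured 9.21 on restricted array 4, against 9.02 to 9.05. Il2rb measured 7.73 on the same array, against 7.20 to 7.29. Zap70 measured 9.65 on aged ad libitum array 3, against 9.75 to 9.77.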

How the results depend on the processing

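No called difference changed sign under the alternatives run. Differences that were not called did so for Cd3e, Cd7, Rac2 and Cd28 (restricted against aged ad libitum) and for Ptprcap, Il2rb, Cxcr4 and Gzma (restricted against young). Of 2314 values of single genes under other settings, 2152 kept their side of the threshold, 132 lost it and 30 gained it. The count of genes higher in aged ad libitum than in young was 24, fell to 0 over the 5 samples and to 8 with young arrays 1 and 2 apart, and was 21 over the 7 samples and 23 to 24 leaving out each array. The count lower was 2, with 1 under array median scaling and 1 in the deposited table, 0 over the 5 samples, 0 with young arrays 1 and 2 apart, 0 over the 7 samples, 0 without young arrays 1 and 2, and 0 to 3 leaving out each array. The count lower with restriction was 5, with 0 over the 5 samples, 0 with young arrays 1 and 2 apart, 0 over the 7 samples, 11 without young arrays 1 and 2, 9 without young arrays 3 and 4, 3 without restricted arrays 1 and 3, 3 without restricted arrays 2 and 4, 8 within slide series 1, and 3 to 6 leaving out each array. The count higher with restriction was 0, with 1 without young arrays 1 and 2 and 1 without young arrays 3 and 4 (Ptprcap in both). Against young the restricted arrays had 21 genes higher, with 4 over the 5 samples and 20 to 23 leaving out each array, and 2 lower, with 0 over the 5 samples, 0 with young arrays 1 and 2 apart, 1 without young arrays 1 and 2, and 1 within slide series 2. The settings over samples and within slide series use fewer values, and the cause of the other changes was not tested. Settings with young arrays 1 and 2 apart, with 7 samples and within slide series were chosen after seeing the data. The replicate block changed no count (24 and 2, 0 and 5, 21 and 2 genes higher and lower). Slide series as a random block gave 24 and 3, 0 and 5, and 21 and 2, with a correlation within series of -0.15, so it made no allowance for likeness within a series. Under array median scaling the median over all probes was -0.22 in place of -0.05 for aged ad libitum against young, and -0.26 in place of -0.02 for restricted against young.

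The aged ad libitum group is 1 sample by the likeness of its arrays, array 4 through array 3 only, so its spread is assumed to be that of the other groups. Dim probes, among them Gzmb and Gzmk in young kidney, have only a bound.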
